A study of Rattus norvegicus with 13 samples.

Results

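The miR-181 family was followed across 13 rat kidneys through 6 mature miRNAs, chosen by name from the 460 rat mature miRNAs of the count table: the guide strands rno-miR-181a-5p, rno-miR-181b-5p, rno-miR-181c-5p and rno-miR-181d-5p, and the opposite-arm products rno-miR-181a-1-3p and rno-miR-181a-2-3p of the miR-181a hairpins. Each small RNA library came from a kidney of a female rat of the inbred Wistar strain WAG/RijCmcr, aged 11 to 12 weeks and near 155 g in weight at treatment. Control rats (n = 4) were matched in age, received 0 Gy and are labelled as having no medication. Irradiated rats (n = 4) were exposed to X-rays (320 kVp, dose rate 1.75 Gy per minute) for a total of 13 Gy, with a hind limb kept outside the beam so that part of the marrow was spared. The lisinopril group (n = 5) received the same radiation and, from day 7, lisinopril, an inhibitor of angiotensin converting enzyme, in drinking water at about 24 mg per square metre per day. A treatment description shared by all libraries lists saline injections on days 3 to 7 and the antibiotic enrofloxacin up to day 14 as supportive care after irradiation, and does not say whether the controls were given it. All kidneys were taken on day 35, so each group is a single time point of whole-organ RNA.

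A miRNA is cut from a hairpin whose arms give a 5p and a 3p product; usually a single arm, the guide, is loaded into Argonaute and pairs with messenger RNAs through its seed, bases 2 to 8, while the other arm, the passenger, is mostly degraded. The miR-181 guides are made from paired hairpins in separate clusters and are best known in lymphocytes, where miR-181a tunes T cell receptor signalling, and in endothelium, where miR-181b dampens NF-kB signalling. In a whole kidney their reads come from all resident cell types together, and fewer cells of a type cannot be told apart from less RNA per cell.

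The mature sequences of 6 of 6 members were matched by name in RefSeq (GRCr8). They are shown because they set which members share targets and which could exchange reads; capitals mark the seed.
rno-miR-181a-5p: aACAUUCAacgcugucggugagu
rno-miR-181c-5p: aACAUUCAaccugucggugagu
rno-miR-181b-5p: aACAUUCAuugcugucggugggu
rno-miR-181d-5p: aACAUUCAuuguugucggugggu
rno-miR-181a-1-3p: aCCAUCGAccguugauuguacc
rno-miR-181a-2-3p: aCCACCAAccguugacugu
The 4 guides carried the same seed, and no other mature rat miRNA in that table carried it. Counted from the 5′ end, miR-181d-5p differed from miR-181b-5p by the single substitution C12U, and miR-181b-5p differed from miR-181a-5p by A9U, C10U and A21G. Removing the base at position 11 of miR-181a-5p gave the sequence of miR-181c-5p. The 3p products did not share a seed: over 19 bases, miR-181a-2-3p differed from miR-181a-1-3p by U5C, G7A and U16C, the first 2 of them in the seed. The 3p product of the mir-181c hairpin, miR-181c-3p, carried the seed of miR-181a-1-3p.

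In that annotation Mir181a-1 lies beside Mir181b1 on chromosome 13, next to Ptprc, the gene of the leukocyte surface protein CD45. Mir181a2 and Mir181b2 overlap Nr6a1, an orphan nuclear receptor gene, on chromosome 3, and Mir181c and Mir181d lie side by side next to Nanos3 on chromosome 19. The identical miR-181a-5p is made at the loci on chromosomes 13 and 3, so its reads cannot be assigned to either. The 3p products differ, and each is annotated at a single locus. The sequence of miR-181b-5p, annotated at Mir181b1, is also contained in the Mir181b2 hairpin. The hairpins of mir-181a-2 (GRCr8, chr3:43025563-43025679, plus strand) and mir-181c (GRCr8, chr19:40888291-40888396, plus strand) show the layout of the arms, with the annotated 5p and 3p products in capitals. These coordinates are of GRCr8 and not of rn4, the build to which the reads were aligned.
mir-181a-2: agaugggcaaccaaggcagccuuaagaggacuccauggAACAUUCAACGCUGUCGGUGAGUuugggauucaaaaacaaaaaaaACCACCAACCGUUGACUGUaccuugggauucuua
mir-181c: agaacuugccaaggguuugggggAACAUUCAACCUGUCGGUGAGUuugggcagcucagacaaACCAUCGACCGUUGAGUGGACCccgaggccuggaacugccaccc

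Depth ranged from 1194175 rat mature miRNA counts in control library 2 to 11095939, with 4885082 the next lowest. Control library 2 also stood apart in that 29.0% of its mature reads carried names of other species, against 10.3% to 14.6% elsewhere. Levels are given as CPM, read counts per 1000000 reads of a library size scaled by the trimmed mean of M-values (TMM). The smallest level taken as detectable, 3 counts, was 3.19 CPM in control library 2 and 0.289 to 0.561 CPM elsewhere, which covers counting error only. All 7 kidney markers fixed for the check were present in every library, summing to 426041 to 737336 CPM in control, 345613 to 478777 CPM in irradiated and 442749 to 573199 CPM in lisinopril libraries, with miR-10a-5p up to 562055 CPM. Among markers of other tissues, muscle miR-1-3p and miR-133a-3p summed to 23.5 to 43.1 CPM, and neural miR-9a-5p was at 197 to 483 CPM. The markers miR-122-5p, miR-124-3p and miR-206-3p had no entry under those names among the rat mature miRNAs, so they were not analysed here. The p53 target miR-34a-5p, a check of the radiation labels, was at 50.0 to 54.4 CPM in control, 256 to 348 CPM in irradiated and 236 to 356 CPM in lisinopril libraries.

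rno-miR-181a-5p was the dominant member in every library. Its mean over the 13 libraries was 19023 CPM, place 10 of 460 rat miRNAs, and it made up 84.2% to 88.6% of the reads of the 4 guides. It was followed by rno-miR-181c-5p (mean 1754 CPM, place 43), rno-miR-181b-5p (1185 CPM, place 55), rno-miR-181d-5p (262 CPM, place 102), rno-miR-181a-1-3p (124 CPM, place 141) and rno-miR-181a-2-3p (46.7 CPM, place 182). This order held in 13 of 13 libraries for every pair of neighbours, and the TMM-scaled ranges of neighbours over the libraries did not overlap. The 4 guides together held 1.35% to 2.56% of rat mature counts in 12 libraries and 3.61% in irradiated library 2. These are levels of reads; how efficiently each sequence is ligated and amplified was not measured.

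The mean shares of the guides in the pool of 4 lay close together in the 3 groups. miR-181a-5p made up 85.1% ± 0.629 (SD, n = 4) of guide reads in control, 86.1% ± 1.67 (n = 4) in irradiated and 85.3% ± 0.444 (n = 5) in lisinopril kidneys. miR-181c-5p made up 8.29%, 7.69% and 7.87%, miR-181b-5p 5.37%, 5.17% and 5.58%, and miR-181d-5p 1.26%, 1.06% and 1.26% in the same order of groups. These shares carry no test of their own; the ratios of counts between members are tested further on.

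Other arms of the family were read at lower levels. miR-181c-3p was at 100.3 to 154 CPM, close to miR-181a-1-3p, which exceeded it in 7 of 13 libraries. The passenger strands miR-181b-1-3p (1.06 to 3.66 CPM) and miR-181b-2-3p (0.327 to 2.40 CPM) were near the detection floor, with a single count each in control library 2.

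**Figure D1:**
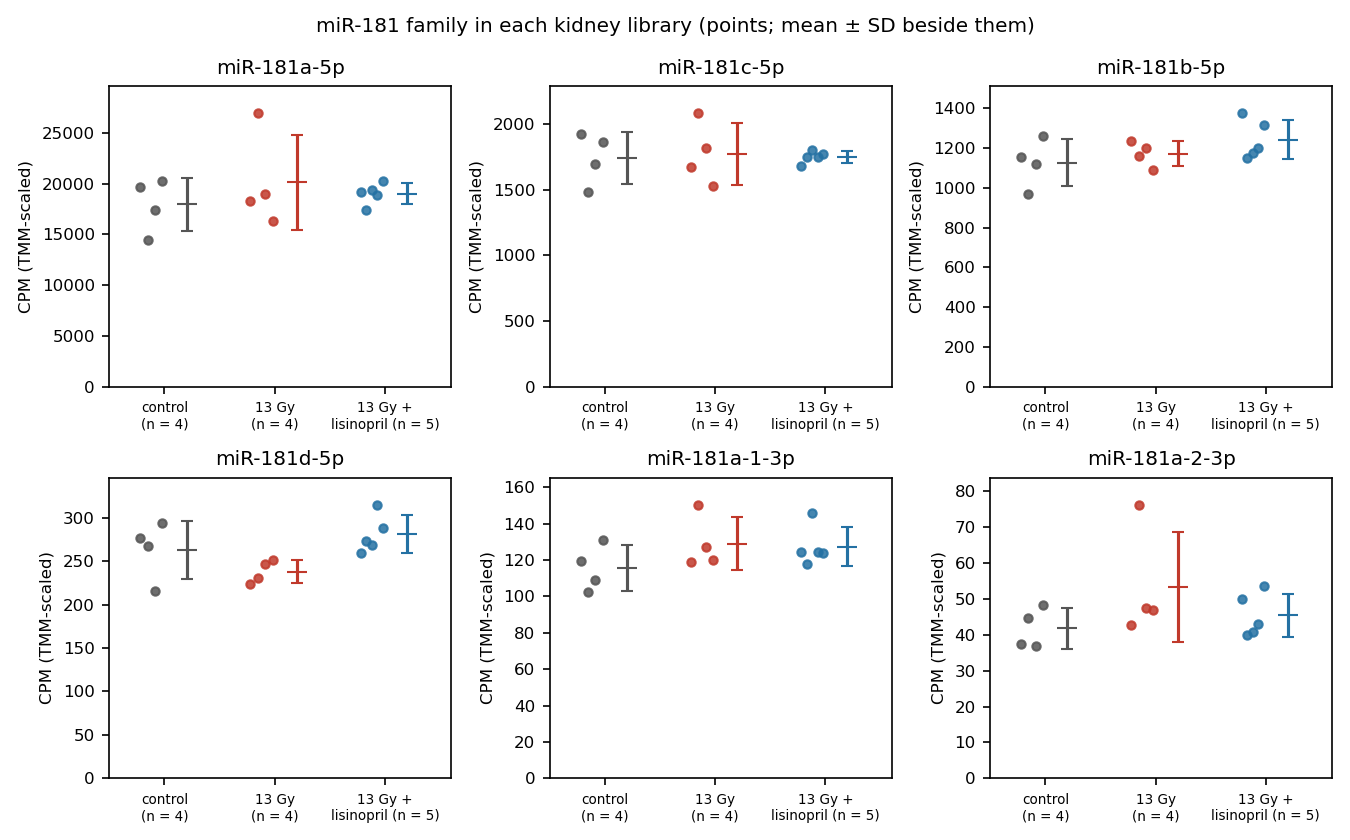
CPM (TMM-scaled) of the 6 miR-181 members in each kidney library (points), and to their right each group's mean ± SD, for control, 13 Gy and 13 Gy plus lisinopril; each panel has its own vertical axis from 0. The groups overlap in every panel except miR-181d-5p, where all 5 lisinopril libraries (259 to 315 CPM) lie above all 4 irradiated ones (224 to 251 CPM); irradiated library 2 is the highest of 13 for the 3 miR-181a products and miR-181c-5p.

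After irradiation alone, no miR-181 member passed the test against control, and the TMM-scaled levels of the 2 groups overlapped for every member. The dominant guide miR-181a-5p was at 19647, 14477, 17413 and 20252 CPM in control libraries 1 to 4 and at 18298, 26912, 18991 and 16301 CPM in irradiated libraries 1 to 4. The groups overlapped, with the highest level in irradiated library 2 and the lowest in control library 2. Its means were 17947 ± 2616 CPM (SD, n = 4) and 20125 ± 4666 CPM (n = 4), which gave 0.17 as log2 fold change (SE 0.150, adjusted p = 0.517).

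The guide miR-181c-5p, which lacks a single base of miR-181a-5p, was at 1924, 1485, 1695 and 1864 CPM in control and at 1668, 2079, 1812 and 1528 CPM in irradiated libraries. Its groups overlapped almost fully, at a log2 difference of 0.02 (SE 0.115, adjusted p = 0.932). miR-181b-5p, the member tied to endothelial NF-kB signalling, was at 1154, 971, 1121 and 1260.0 CPM in control and at 1237, 1161, 1202 and 1089 CPM in irradiated libraries. All 4 irradiated values lay within the range of the controls (log2 fold change 0.06, SE 0.108, adjusted p = 0.781). miR-181d-5p was at 276, 267, 216 and 293 CPM in control and at 224, 231, 247 and 251 CPM in irradiated libraries. It was the only member with a negative log2 fold change in this comparison (-0.14, SE 0.120, adjusted p = 0.47), and its irradiated values too lay within the control range.

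The passenger strand of the chromosome 13 locus, miR-181a-1-3p, was at 119, 102, 109 and 131 CPM in control and at 119, 150.3, 127 and 119.8 CPM in irradiated libraries (log2 fold change 0.16, SE 0.129, adjusted p = 0.47). The passenger of the chromosome 3 locus, miR-181a-2-3p, had the largest log2 fold change of the 6, 0.36 (SE 0.191, adjusted p = 0.285). It was at 37.3, 44.7, 36.8 and 48.4 CPM in control and at 42.6, 76.2, 47.4 and 46.8 CPM in irradiated libraries. Irradiated library 2 was far above the rest, and the other 3 irradiated libraries lay within the control range. Without irradiated library 2 the log2 fold change of miR-181a-2-3p was 0.14, and that of miR-181a-5p was -0.0044.

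The size of these differences depended on how libraries were scaled. With library totals alone in place of TMM, the median log2 fold change of all 419 miRNAs between irradiated and control moved from 0.02 to 0.26, and the members moved with it. miR-181a-5p was then at 0.42, miR-181a-1-3p at 0.41, miR-181a-2-3p at 0.62, miR-181b-5p at 0.30, miR-181c-5p at 0.28 and miR-181d-5p at 0.12, the last with its sign turned. The 3 miR-181a products had unadjusted p-values of 0.0107 to 0.0413, and the adjusted p-values of edgeR's test for the 6 members were 0.108 to 0.552, so none passed. Relative to the median of all miRNAs, the members stood at 0.16, 0.15, 0.36, 0.04, 0.02 and -0.14 in the same order. On that scale miR-181a-2-3p, at 34.3 to 45.2 per 1000000 rat miRNA reads in control and 46.7 to 90.5 in irradiated libraries, was the only member whose groups did not overlap, against 6.21% of all tested miRNAs.

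In the quasi-likelihood test of edgeR, with p-values adjusted by the Benjamini-Hochberg method over 419 miRNAs, all 6 members were tested and 0 of 6 passed between irradiated and control kidneys, against 7 of all 419 tested (1.67%). That background of 7 rose to 60 without irradiated library 4 and fell to 1 without control library 4, while the members stayed at 0 of 6. With TMM no member had an unadjusted p under 0.05, and DESeq2 and limma-voom also called 0 of 6. The 95% confidence intervals ran from -0.40 at the lowest (miR-181d-5p) to 0.76 at the highest (miR-181a-2-3p) on the log2 scale. For the abundant guides they were narrower: a fold of 0.898 to 1.40 for miR-181a-5p, 0.887 to 1.22 for miR-181b-5p and 0.857 to 1.21 for miR-181c-5p. These intervals do not cover the choice of scaling: with library totals alone the folds were 1.34 (1.01 to 1.77), 1.23 (0.981 to 1.55) and 1.21 (0.954 to 1.54) in the same order. The median log2 fold change of the 6 members was 0.11, beside 0.02 over all tested miRNAs, and the median size regardless of sign was 0.15, beside 0.28. With TMM the groups did not overlap for 0 of 6 members, and for 7.16% of all tested miRNAs.

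**Figure D2:**
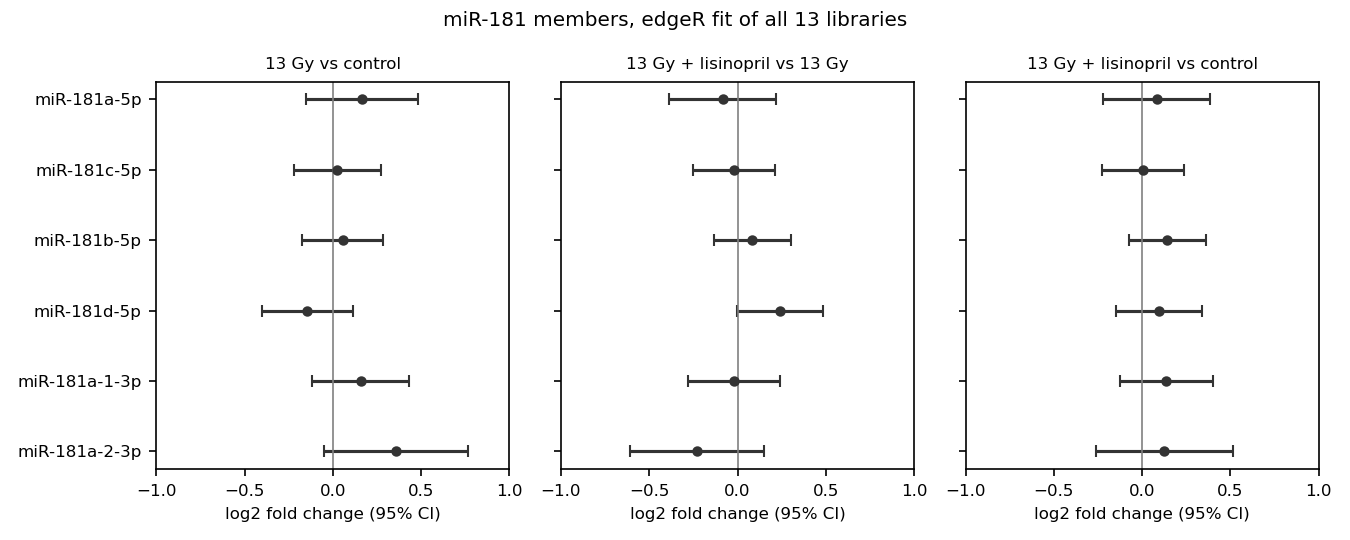
Log2 fold change (points) with its 95% confidence interval (bars) of each miR-181 member in the 3 comparisons, from the edgeR fit of all 13 libraries with TMM scaling. All 18 intervals include 0; the closest to leaving it is miR-181d-5p between the irradiated groups, from -0.0041 to 0.48.

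Between irradiated kidneys with and without lisinopril, miR-181d-5p was the member that came closest to the threshold. It was at 259, 274, 268, 315 and 288 CPM in lisinopril libraries 1 to 5, against 224, 231, 247 and 251 CPM in irradiated libraries 1 to 4. On the TMM scale all 5 treated rats lay above all 4 untreated ones. The means were 281 ± 21.7 CPM (SD, n = 5) and 238 ± 13.0 CPM (n = 4), a log2 difference of 0.24 (SE 0.114, adjusted p = 0.325). The separation was lost with library totals alone, where the lisinopril libraries were at 253 to 292 and the irradiated ones at 245 to 283 per 1000000 rat miRNA reads. The log2 difference was then 0.05 (edgeR adjusted p = 0.822), or 0.26 above the median of all miRNAs, which itself moved from -0.02 to -0.21. The controls, on the TMM scale at 216 to 293 CPM, spanned nearly the range of both irradiated groups.

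The other guides differed less between these groups. In lisinopril libraries 1 to 5, miR-181a-5p was at 19135, 17406, 19323, 18872 and 20269 CPM, with a mean of 19001 ± 1036 CPM (log2 fold change -0.08, SE 0.142, adjusted p = 0.793). These 5 values lay close together and between the lowest and highest irradiated libraries. miR-181c-5p was at 1678, 1744, 1801, 1749 and 1772 CPM, within the range of the irradiated libraries (log2 fold change -0.02, SE 0.109, adjusted p = 0.949). miR-181b-5p was at 1374, 1152, 1173, 1199 and 1315 CPM; 2 treated rats exceeded all 4 untreated ones and the other 3 lay among them (log2 fold change 0.08, SE 0.102, adjusted p = 0.698).

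The passenger miR-181a-1-3p was at 124, 118, 146, 124 and 124 CPM with lisinopril, overlapping the irradiated libraries (log2 fold change -0.02, SE 0.122, adjusted p = 0.955). miR-181a-2-3p was at 50.0, 39.9, 40.7, 43.0 and 53.5 CPM (log2 fold change -0.23, SE 0.178, adjusted p = 0.534). Without irradiated library 2 its log2 fold change was -0.02, and that of miR-181a-5p was 0.08. With library totals alone, miR-181a-5p was at -0.29, miR-181a-1-3p and miR-181c-5p each at -0.22, miR-181a-2-3p at -0.43 and miR-181b-5p at -0.10 on the log2 scale, with adjusted p-values from 0.247 to 0.698 by edgeR's test.

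By edgeR's test 0 of 6 members passed between the irradiated groups, and 0 of all 419 tested miRNAs (0%). Over all miRNAs 63 had an unadjusted p under 0.05, DESeq2 called 11, and edgeR called 47 without irradiated library 4, none of them a member. With TMM no member had an unadjusted p under 0.05; with library totals alone 1 did, miR-181a-2-3p at 0.0447. DESeq2 and limma-voom called 0 of 6. The intervals of the 6 members lay between -0.61 and 0.48 on the log2 scale, folds of 0.655 to 1.40. On the TMM scale the groups did not overlap for 1 of 6 members, miR-181d-5p, and for 18 of all 419 (4.30%); with library totals alone they overlapped for every member, and did not for 19 of all 419 (4.53%). The median log2 fold change of the members was -0.02, the same as over all tested miRNAs to 2 decimals, and the median size regardless of sign was 0.08, beside 0.22.

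Between lisinopril-treated irradiated kidneys and controls, again 0 of 6 members passed, against 26 of all 419 tested miRNAs (6.21%) by edgeR's test. None had an unadjusted p under 0.05, and DESeq2 and limma-voom called 0 of 6. All 6 log2 fold changes were positive and small: 0.14 for miR-181b-5p (SE 0.102, adjusted p = 0.482), 0.14 for miR-181a-1-3p (SE 0.123, adjusted p = 0.587), and 0.01 to 0.13 for the rest with adjusted p-values from 0.742 to 0.989. The lowest and highest bounds of their intervals were -0.26 and 0.51, both of miR-181a-2-3p. With library totals alone the log2 fold changes were 0.06 to 0.20, all positive. The groups overlapped for 6 of 6 members, whereas 13.4% of all tested miRNAs had no overlap; with library totals alone the members again overlapped in 6 of 6 cases, and 8.83% of all did not. Both irradiated groups were compared with the same 4 controls, so these values and those of irradiation alone are not independent; for miR-181d-5p they were 0.09 with the drug and -0.14 without it.

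The ratio of arms of miR-181a, which does not depend on how libraries are scaled, showed no difference between the groups that passed the test. Counts of miR-181a-5p exceeded those of miR-181a-1-3p by 155 ± 9.84 times in control (n = 4), 155 ± 17.95 times in irradiated (n = 4) and 149.9 ± 11.3 times in lisinopril kidneys (n = 5). Library by library, the ratio was 165, 142, 159.8 and 155 in control, 154, 179, 149.7 and 136 in irradiated, and 154, 148, 133, 152 and 163 in lisinopril libraries. The groups overlapped, and irradiated library 2 had the highest ratio. The ratio of miR-181a-5p to the rarer miR-181a-2-3p was 526, 324, 473 and 419 in control, 429, 353, 400.3 and 348 in irradiated, and 382, 436, 474, 439 and 379 in lisinopril libraries. Its lowest value, in control library 2, rests on 42 counts of the passenger.

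The passengers compared with each other give the balance of the chromosome 13 and chromosome 3 loci only as far as stable passenger RNA shows it. The counts of miR-181a-1-3p could not be separated from those of miR-3570 on the opposite strand, as shown further on. That passenger also differs from miR-181c-3p of chromosome 19 by U16G and U19G alone, and exchange of reads between them was not tested. miR-181a-1-3p exceeded miR-181a-2-3p by 2.79 ± 0.389 times in control, 2.50 ± 0.364 times in irradiated and 2.85 ± 0.490 times in lisinopril kidneys. The lowest ratio of the 13 was in irradiated library 2, at 1.97, and the highest in lisinopril library 3, at 3.58. The ratio varied 1.81-fold between rats, with overlapping groups.

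Among guides, the ratio of miR-181a-5p to miR-181b-5p, whose hairpins sit in the same clusters, was 14.9 to 17.0 in control and 13.9 to 16.5 in lisinopril libraries. In irradiated libraries it was 14.8, 23.2, 15.8 and 15.0, so that 3 lay with the other groups and library 2 far above. miR-181b-5p exceeded miR-181d-5p, from which it differs by a single base, by 4.32 ± 0.644, 4.94 ± 0.492 and 4.45 ± 0.551 times in the 3 groups. That ratio ranged from 3.64 to 5.53 over the 13 libraries, the lowest value resting on 251 counts of miR-181d-5p in control library 2. Whether reads of miR-181b-5p were counted as miR-181d-5p was not tested, and a varying ratio cannot decide it. The cluster partners miR-181c-5p and miR-181d-5p stood at ratios of 6.68 ± 0.967 in control, 7.48 ± 1.20 in irradiated and 6.25 ± 0.438 in lisinopril kidneys.

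In two-sided exact permutation tests of the log2 ratios, 0 of 18 (6 ratios in 3 comparisons) passed after Benjamini-Hochberg adjustment. The smallest p was that of miR-181c-5p to miR-181d-5p between the irradiated groups, a log2 difference of -0.25 with lisinopril (exact permutation p = 0.0714, adjusted p = 0.738). The smallest p these exact tests allow is 0.0286 for 4 against 4 and 0.00794 for 4 against 5. Over 18 tests, a single ratio at either value would not pass after adjustment. The absence of calls therefore does not show that the ratios were the same in the groups. For the arm ratios the unadjusted exact permutation p-values ranged from 0.183 to 0.943.

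**Figure D3:**
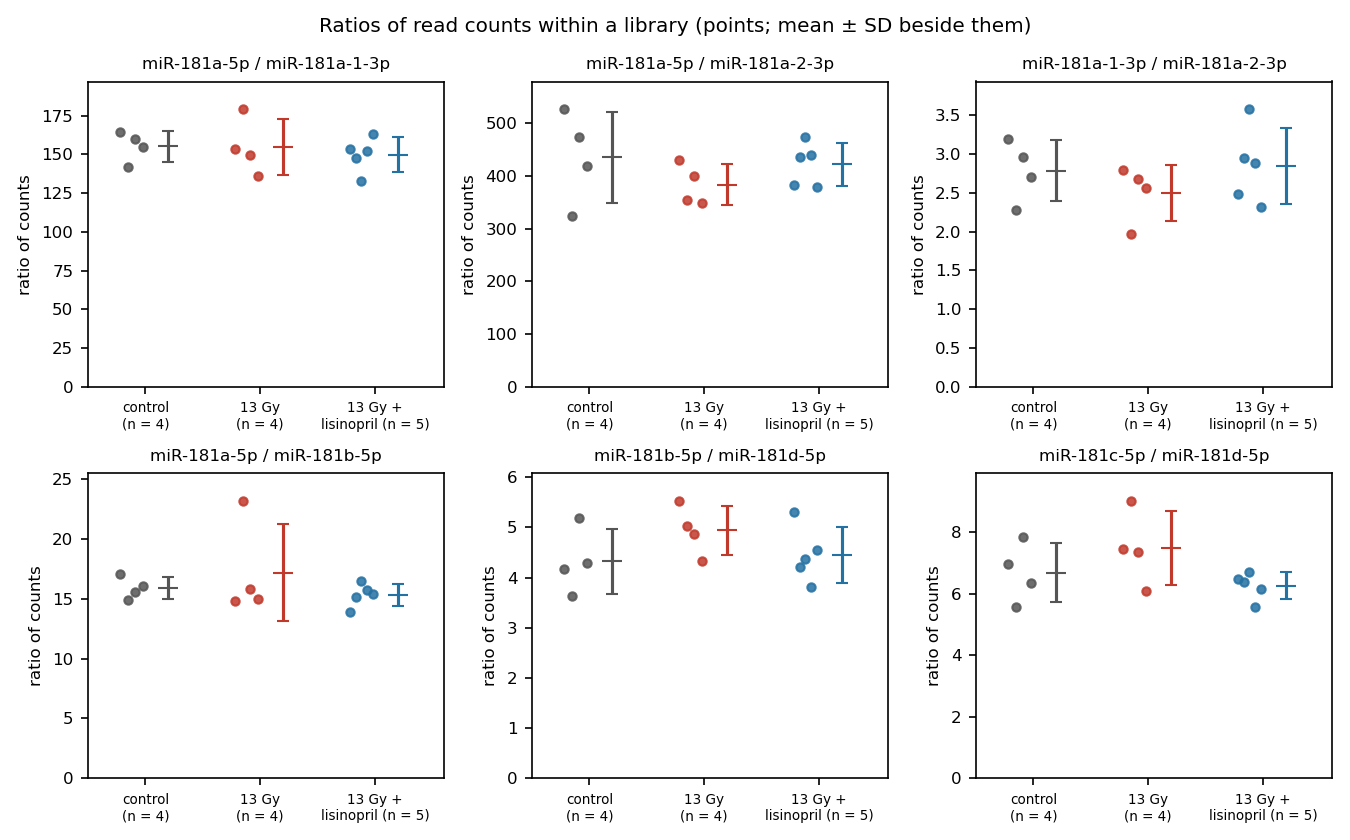
Ratio of read counts between pairs of miR-181 members within each library (points), and to their right each group's mean ± SD; each vertical axis starts at 0. The groups overlap in all 6 panels, and the single point far from its group is irradiated library 2, at 23.2 for miR-181a-5p to miR-181b-5p.

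Irradiated library 2 decided the highest values of several members. It was the highest of the 13 libraries for miR-181a-5p, miR-181a-1-3p, miR-181a-2-3p and miR-181c-5p, and also for miR-181c-3p (154 CPM), but not for miR-181b-5p (1161 CPM) or miR-181d-5p (231 CPM). The library stood apart in general: 95 of the 419 tested miRNAs (22.7%) had their highest and 98 (23.4%) their lowest level in it. Its scaling factor, 1.19, was the largest. In it the kidney markers summed to 345613 CPM and the endothelial markers to 9335 CPM, both the lowest of the 13 libraries. The endothelial markers did not move together. Among them, miR-221-3p and miR-222-3p were at their highest in this library, and the more abundant miR-126a-3p and miR-126a-5p were at their lowest. The kidney markers miR-192-5p, at 34750 CPM, and miR-30a-5p, at 53334 CPM, were also at their lowest there, as were miR-194-5p and miR-196a-5p. The remaining kidney markers, miR-10a-5p, miR-10b-5p and miR-204-5p, were at neither extreme. For miR-204-5p the level was 243 CPM, within 169 to 288 CPM over all libraries. The widely expressed miR-21-5p, at 6655 CPM, was at its lowest in this library. The leukocyte markers summed to 2042 CPM, within the 1374 to 2362 CPM of all libraries. Among them, miR-142-3p (23.6 CPM), miR-142-5p (82.1 CPM) and miR-223-3p (26.7 CPM) were at their lowest in this library. In contrast, miR-342-3p (121 CPM) was at its highest, and the remaining leukocyte markers were at neither extreme. Whether these features bear on its miR-181 levels was not tested. At the other end, control library 2, the shallowest, was the lowest of 13 for 4 of 6 members. It too stood apart in general, with the lowest level of 79 of the 419 tested miRNAs (18.9%) and the highest of 67 (16.0%).

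On the TMM scale, several members varied little between libraries. The SD of log2 CPM over all 13 libraries was 0.13 for miR-181b-5p and for miR-181c-5p, the 6th and 8th lowest of 419. It was 0.15 for miR-181a-1-3p, 0.16 for miR-181d-5p, 0.21 for miR-181a-5p and 0.27 for miR-181a-2-3p. The median was 0.35 over all tested miRNAs and 0.26 over the 151 with a mean of at least 100 CPM. miR-181a-2-3p, with 42 to 614 counts per library, was the rarest and the most variable member.

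**Figure D4:**
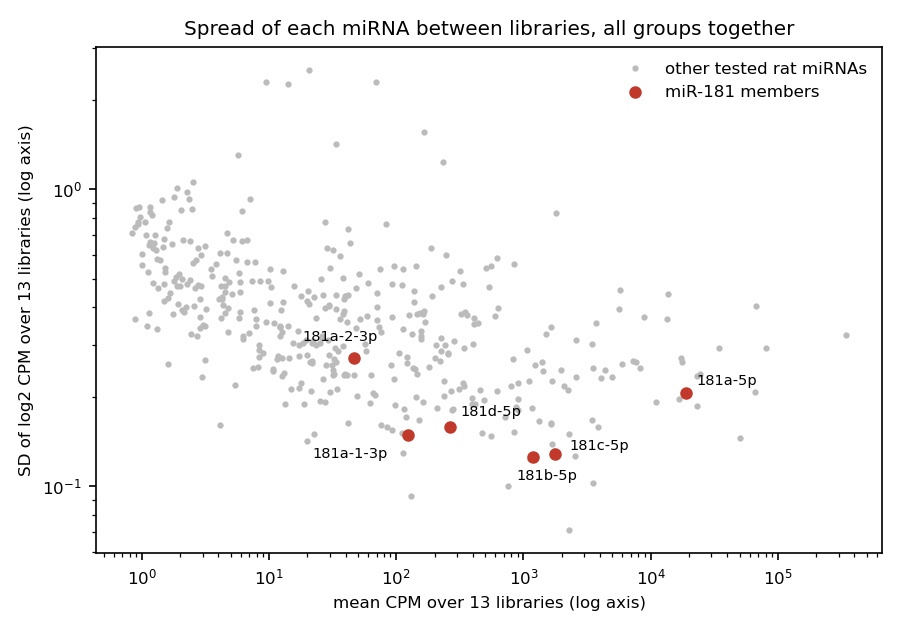
SD of log2 CPM over the 13 libraries against the mean CPM, both on log axes, for each of 419 tested rat miRNAs (grey) and the 6 miR-181 members (red). miR-181b-5p and miR-181c-5p lie near the lower edge at an SD of 0.13, while miR-181a-2-3p, at 0.27, lies amid miRNAs of its abundance.

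The counts of miR-181a-1-3p could not be separated from those of miR-3570. RefSeq places miR-3570 on the opposite strand over all 22 bases of miR-181a-1-3p, as its exact reverse complement.
rno-miR-3570: gguacaaucaacggucgauggu
In every library miR-3570 held 88.3% to 97.9% of the counts of miR-181a-1-3p, for example 1034 against 1130 in control library 3 and 945 against 1070 in lisinopril library 5. No source used here says whether counting used strand, so reads of the pair cannot be told apart and the values of miR-181a-1-3p are uncertain to that extent. The log2 fold changes of miR-3570 were 0.12 between irradiated and control, -0.03 between the irradiated groups and 0.09 between lisinopril and control, near those of miR-181a-1-3p.

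**Figure D5:**
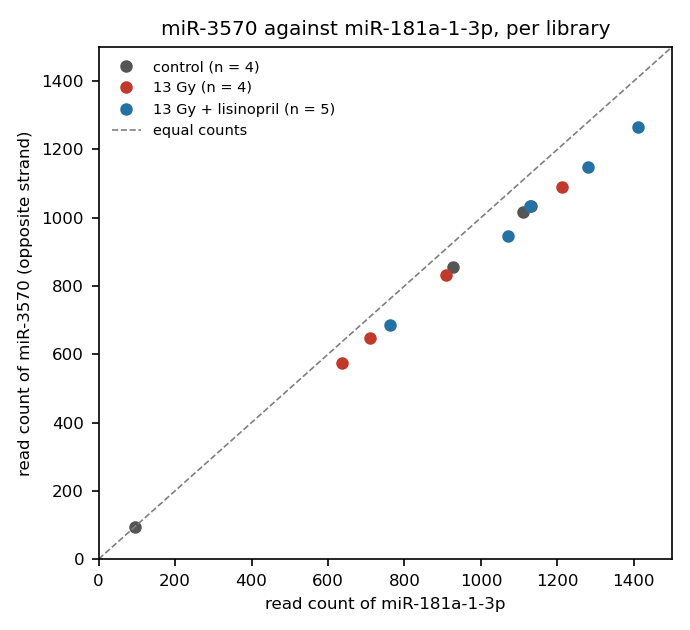
Read count of miR-3570 against that of miR-181a-1-3p in each of the 13 libraries, coloured by group, with the line of equal counts dashed. All points lie just below the line, at 88.3% to 97.9% of the miR-181a-1-3p count.

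The miRNAs whose levels followed those of the family most closely were ranked among 276 tested miRNAs outside it with a mean of at least 10 CPM, by Pearson's r of log2 CPM over the 13 libraries. All points share the library scaling, and the values are descriptive. One candidate, miR-3570, is outside the family by name only: its counts could not be separated from those of the member miR-181a-1-3p. Its r may therefore hold reads of the family itself. For miR-181a-5p the closest were miR-194-3p (r = 0.81), miR-3570 (0.79) and miR-151-3p (0.76). Without irradiated library 2, in which miR-151-3p reached 6216 CPM against at most 3901 CPM elsewhere, these became 0.75, 0.63 and 0.32. For miR-181b-5p they were miR-330-5p (0.87), miR-196b-5p (0.83) and miR-30c-2-3p (0.74), and without control library 2 they were 0.77, 0.76 and 0.70.

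miRNAs of NF-kB and inflammatory signalling, the pathway to which miR-181b is linked, were measured beside the family, with 7 of 7 tested. By edgeR's test 1.67% of all 419 tested miRNAs passed between irradiated and control, 0% between the irradiated groups and 6.21% between lisinopril and control. In the same test 0 of these 7 passed in any of the 3 comparisons. In irradiated against control kidneys, 6 had negative log2 fold changes and 1 a positive one, miR-132-3p at 0.39. In lisinopril against control kidneys, 5 were negative and 2 positive, miR-132-3p at 0.44 and miR-9a-5p at 0.40. The median log2 fold change of the 7 was -0.57 in irradiated against control, 0.14 between the irradiated groups and -0.36 in lisinopril against control. Over all tested miRNAs it was 0.02, -0.02 and 0.05. The 2 with the smallest p after irradiation were miR-223-3p, typical of neutrophils, at 47.2 ± 6.02 CPM in control and 31.1 ± 4.38 CPM in irradiated kidneys (adjusted p = 0.065), and miR-146a-5p, induced by NF-kB, at 1177 ± 259 and 704 ± 121 CPM (adjusted p = 0.105).

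Leukocyte markers were of interest because miR-181 guides are abundant in lymphocytes. All 7 were present in every library, and 0 of 7 passed in any comparison, against the 1.67%, 0% and 6.21% of all miRNAs given above. They summed to 1912 to 2362 CPM in control, 1717 to 2042 CPM in irradiated and 1374 to 1854 CPM in lisinopril libraries, well below miR-181a-5p itself. Their median log2 fold change was -0.57 in irradiated against control kidneys, -0.02 between the irradiated groups and -0.25 in lisinopril against control kidneys; 3 of them, miR-146a-5p, miR-155-5p and miR-223-3p, also belong to the NF-kB list. Between irradiated and control, 5 of 7 had negative values, from -0.74 for miR-146a-5p to -0.50 for miR-142-3p, and 2 had positive ones, miR-150-5p at 0.66 and miR-342-3p at 0.27. The lymphocyte miRNA miR-150-5p was at 478 ± 172, 757 ± 285 and 617 ± 336 CPM in the 3 groups (adjusted p = 0.291 between irradiated and control). Endothelial markers (4 of 4 tested, 0 passed) summed to 12193 to 15129, 9335 to 14599 and 10672 to 16182 CPM. Erythroid markers (4 of 4 tested, 0 passed), a sign of blood in the tissue, summed to 918 to 2104, 790 to 4229 and 674 to 3491 CPM, with miR-144-5p at 0 in at least a single library. Most of that sum was miR-486, at 666 to 3952 CPM over the 13 libraries. The rarer markers spread far more widely, miR-451-5p from 1.55 to 219 CPM and miR-144-3p from 0.207 to 44.6 CPM. What part these cell types have in the miR-181 levels was not tested.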

How the data were processed

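Libraries were prepared from 1 ug of kidney total RNA with a TruSeq small RNA kit, per the labels' protocols. The submitters' processing notes name Trim Galore 0.2.5, Bowtie 1.1.1 and the rn4 build. For the counting tool, its use of strand and its handling of reads that map more than once, the sources used here give nothing. The authors deposited read counts as whole numbers for 13 libraries, with no normalization visible in the values. Of 1121 features, the 460 mature rat miRNAs were used.

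The group name in the labels assigned each library; the labels describe no batch or pairing. Pairs of replicate libraries differed beyond sampling noise (102 to 970 chi-square units per degree of freedom), and none was treated as a duplicate. The fit used edgeR 4.0.16 in R 4.3.3: filterByExpr left 419 miRNAs, TMM scaled the libraries, and glmQLFit took all 13 libraries with group as the only factor. Benjamini-Hochberg adjustment covered the 419 miRNAs of a comparison (threshold 0.05). A prior count of 2 entered log2 CPM. Count ratios within a library, 0.5 added to each count, were compared on the log2 scale by two-sided exact permutation tests. The fit was tested on simulated data. Alternatives were DESeq2 1.42.0, limma-voom (limma 3.58.1), other scalings and filters, fits of only the 2 groups compared, and left-out libraries.

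The members and lists were chosen with earlier results of these data known. By rule the text names the 6 members, other miR-181 entries, the 3 miRNAs most similar to miR-181a-5p and to miR-181b-5p, miR-34a-5p, and the 2 NF-kB list members with the smallest p; other markers and miR-3570's overlap were singled out after their values were seen.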

Additional observations from a re-analysis of the deposited data

Results flagged for a closer look

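In lisinopril library 3, miR-181a-1-3p was at 146 CPM, apart from the other 4 libraries of the group at 118 to 124 CPM. In irradiated library 2, miR-181a-2-3p was at 76.2 CPM, apart from 42.6 to 47.4 CPM in the other 3, and the ratio of miR-181a-5p to miR-181b-5p was 23.2, apart from 14.8 to 15.8. These 3 stood out by the size of their gap among 36 groups of values examined, where chance gives about 1 in 20.

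An entry outside the rat miRNAs, cin-miR-181, named after another species, had a median of 1.26 CPM in lisinopril libraries, above the 0 to 0.289 CPM of the controls. It was at 0, 0, 3 and 1 counts in control, 5, 6, 4 and 0 in irradiated, and 6, 15, 13, 13 and 9 in lisinopril libraries. No control library exceeded 3 counts, the level taken as detectable, and in control library 2 that level was 3.19 CPM, above every value of this entry. It was not tested between groups.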

How the results depend on the processing

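No miR-181 member and no ratio was called under any alternative run: 18 log2 fold changes gave 294 alternative values with a smallest adjusted p of 0.108, and 18 ratio differences gave 174 with a smallest of 0.321. Of these values, 20 and 16 changed sign; all were under 0.1 in size but 2 log2 fold changes with library totals alone. For the ratios the absence of calls says little. A single ratio at the smallest p the exact tests allow would not pass over 18 tests. No paired analysis was possible because the labels give no replicate numbers shared between groups. Depth limits the rarest entries: per library, miR-181b-1-3p had 1 to 31 counts, miR-181b-2-3p 1 to 23 and cin-miR-181 0 to 15.

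For miR-181c-5p between lisinopril and control kidneys, the log2 fold change was 0.01, and -0.017 with RLE size factors, -0.039 with a mean of at least 10 CPM, -0.019 with DESeq2 and -0.0027 with irradiated library 2 left out of the shared fit, an alternative added after the data were seen, as was leaving out control library 2 for the irradiated groups. The 2 larger turns were with library totals alone: miR-181d-5p at 0.12 against -0.14 between irradiated and control, and miR-181b-5p at -0.10 against 0.08 between the irradiated groups. That scaling raised the median of all miRNAs from 0.02 to 0.26 in the first comparison and lowered it from -0.02 to -0.21 in the second.

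With each library left out in turn, log2 fold changes between irradiated and control ranged from -0.0044 to 0.28 for miR-181a-5p, -0.0050 to 0.11 for miR-181b-5p and -0.059 to 0.11 for miR-181c-5p. Between the irradiated groups they ranged from -0.20 to 0.078 for miR-181a-5p, -0.093 to 0.051 for miR-181a-1-3p and -0.11 to 0.057 for miR-181c-5p. Between lisinopril and control they ranged from -0.0080 to 0.15 for miR-181a-5p and -0.064 to 0.056 for miR-181c-5p. The turns of miR-181a-5p came without irradiated library 2 or control library 2, and that of miR-181a-1-3p without irradiated library 2; miR-181b-5p turned without control library 2. miR-181c-5p turned without control library 2 or 3 or irradiated library 2 in the first comparison, without irradiated library 2 or lisinopril library 3 in the second, and without control library 2 or lisinopril library 2, 4 or 5 in the third. Log2 ratio differences that changed sign ranged, for miR-181a-5p to miR-181a-1-3p, from -0.081 to 0.051 between irradiated and control and -0.10 to 0.031 between the irradiated groups. For miR-181a-5p to miR-181b-5p the ranges were -0.064 to 0.15 and -0.20 to 0.012 in the same comparisons. Between lisinopril and control they were -0.16 to 0.076 for miR-181a-5p to miR-181a-2-3p, -0.068 to 0.096 for the 2 passengers and -0.034 to 0.14 for miR-181b-5p to miR-181d-5p.

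The background count of called miRNAs did depend on the settings; the cause was not tested. Between irradiated and control it was 7, and 37 with DESeq2, 2 with library totals and 1 with only the 2 groups compared. It was 60 without irradiated library 4, 11 without control library 3, 4 without irradiated library 2, 2 without irradiated library 1 or 3 and 1 without control library 4. Between the irradiated groups it was 0, and 2 with RLE size factors, library totals, a mean of at least 10 CPM or limma-voom, and 11 with DESeq2. It was 47 without irradiated library 4, 2 without lisinopril library 4 and 0 without any other. Between lisinopril and control it was 26, and 17 with a mean of at least 10 CPM, 40 with only the 2 groups compared and 43 with irradiated library 2 left out. It was 32 without control library 2, 13 without control library 4, 15 without lisinopril library 3 or 4 and 16 without lisinopril library 5.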
